A study of Mus musculus with 6 samples.

Results

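The nuclear genes of the mitochondrial respiratory chain and ATP synthase were described in lymphatic endothelial cells (LECs) sorted from the dura mater, the outer sheet of the meninges. Members were chosen by gene name alone. They were the names that begin with Nduf, Uqcr, Cox4 to Cox8 or Atp5, together with *Sdha* to *Sdhd* and *Cyc1*, without names that hold -ps. The rule found 99 of the 55401 gene identifiers in the tables. Of these, 47 belong to complex I, 4 to complex II, 9 to complex III, 21 to complex IV and 18 to complex V, and 95 are annotated as protein coding. The other 4, *Ndufb4c*, *Ndufs6b*, *Ndufa11b* and *Cox6c2*, are annotated as processed pseudogenes, so the name rule also took copies of chain genes. *Atp5o* is present under a pair of identifiers.

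Male wild-type C57BL/6J mice received 1 injection of an adeno-associated virus (AAV) of serotype 9 into the cisterna magna at 4 weeks of age. In AAV-VEGF-C mice the vector encoded full-length mouse VEGF-C, the lymphatic growth factor, and in AAV-CTRL mice it encoded a soluble piece of VEGFR3 that does not bind VEGF-C (the controls). Viable cells positive for LYVE-1, podoplanin and CD31 and negative for CD45 were sorted from the dura, and total RNA was sequenced from 3 libraries per group, each a pool of 10 to 12 animals from a separate experiment. The interval between injection and sort is not given for these libraries in the sources used here. The comparison asks how the members differ between the vectors, and p-values measure the spread among these 6 libraries.

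Complex I passes electrons from NADH and complex II passes electrons from succinate to ubiquinone, complex III passes them on to cytochrome c, and complex IV hands them to oxygen. Complexes I, III and IV pump protons, and complex V, the ATP synthase, uses the gradient to make ATP. Most subunits are encoded in the nucleus and imported, while a small set in complexes I, III, IV and V is encoded by mitochondrial DNA. Endothelial cells are known for a large share of glycolysis in their ATP supply.

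Depth differed between the groups. The library totals were 6530269 to 12399498 counts in the controls and 564475 to 3261935 in AAV-VEGF-C, so depth and vector cannot be told apart. A median member received 77, 101 and 253 counts in AAV-CTRL 1, 2 and 3 and 3, 12 and 36 in AAV-VEGF-C 1, 2 and 3. In AAV-VEGF-C 1, 21 members were at 0, and 3 counts there equal 5.32 CPM (counts per 1e6 of the library total), whereas 3 to 5 members were at 0 in each AAV-CTRL library. The lymphatic genes *Prox1*, *Flt4*, *Lyve1* and *Pdpn* had at least 25 counts in every library. From here on, CPM is taken after TMM scaling, which sets libraries to a common centre. Markers of other cells were present too: 5 fibroblast markers summed to 8018 to 19921 CPM in the controls and 5346 to 9247 in AAV-VEGF-C, and 5 leukocyte markers reached 3200 CPM but stayed under 89 in both libraries of experiment 1. Blood endothelial markers summed to 566, 1545 and 3110 CPM in the controls and 832, 1036 and 645 in AAV-VEGF-C, and lymphatic markers to 2287, 1451 and 1142 against 3864, 1114 and 655. Red cell markers ranged from 10.4 to 123 and from 0 to 111 CPM. The part of these cells in the results was not tested. Summed CPM of 1410 olfactory receptor genes was 95.3 to 218 in the controls and 1802 to 5708 in AAV-VEGF-C, and the part of such reads in the results below was not tested.

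The start regions of chain genes are known for sites of the factors NRF1, of the ETS family (NRF2, also called GABP) and YY1. A RefSeq promoter window, from 250 bases before to 50 after the start, was matched for 76 of 94 coding members. On either strand, the letters GCATGCGC (NRF1 core) stood in 12 of them (15.8%, against 3.05% of 27025 genes), CCGGAAG (ETS core) in 19 (25.0% against 9.93%) and AAGATGGCG (YY1 core) in 8 (10.5% against 1.64%). Different cores did not overlap in the members, while the NRF1 core can overlap its own reverse complement, and each gene was counted once per core. Among 5162 genes tested that averaged 5 TPM or more (a level per transcript length, as a share of all transcripts), which are closer to the members in level, the shares were 5.70%, 20.1% and 3.70%. At least 1 core was found in 32 members, or 42.1%, against 13.6% of all genes and 26.8% of those at 5 TPM. A match is a run of letters, and binding was not measured.

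Windows of 5 members are shown from 100 bases before to 30 after the RefSeq start (GRCm38.p6), in the direction of the gene, with core motifs in capitals. *Uqcr11*, *Cox8a* and *Atp5j* were picked because they hold the NRF1, ETS and YY1 core. Each has the highest mean TPM among members with that core in this span. *Ndufb2* and *Uqcrfs1* were picked as the members called below in the fit with the experiment as a block. *Uqcr11* at chr10:80406792-80406921 on the minus strand holds the ETS and then the NRF1 core. *Cox8a* at chr19:7217587-7217716 on the minus strand holds the ETS core on its other strand. *Atp5j* at chr16:84834947-84835076 on the minus strand holds the YY1 and then the ETS core, while a second RefSeq start of *Atp5j* holds none in the same span. *Ndufb2* at chr6:39592465-39592594 on the plus strand and *Uqcrfs1* at chr13:30545287-30545416 on the minus strand hold none of these letters in this window.
Uqcr11: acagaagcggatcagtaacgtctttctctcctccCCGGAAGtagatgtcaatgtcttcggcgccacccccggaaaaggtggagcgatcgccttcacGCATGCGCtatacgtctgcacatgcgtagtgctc
Cox8a: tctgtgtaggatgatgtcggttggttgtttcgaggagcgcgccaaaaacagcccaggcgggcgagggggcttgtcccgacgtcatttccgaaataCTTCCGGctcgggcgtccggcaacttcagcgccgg
Atp5j: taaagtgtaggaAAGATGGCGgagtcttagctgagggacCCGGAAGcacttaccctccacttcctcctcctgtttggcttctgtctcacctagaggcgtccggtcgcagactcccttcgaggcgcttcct
Ndufb2: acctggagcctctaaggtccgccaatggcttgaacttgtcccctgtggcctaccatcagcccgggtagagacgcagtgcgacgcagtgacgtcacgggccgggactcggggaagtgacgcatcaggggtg
Uqcrfs1: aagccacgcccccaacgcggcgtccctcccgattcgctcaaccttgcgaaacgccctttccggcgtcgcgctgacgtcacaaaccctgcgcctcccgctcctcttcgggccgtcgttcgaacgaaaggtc

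The copies matter for what was counted, because short reads from a copy and its parent can be hard to tell apart. *Ndufb4c*, on chromosome 15 from 73809507 to 73809896 (minus strand), is identical to the *Ndufb4* transcript over all 390 of its bases in GENCODE M21. *Cox6c2*, on chromosome 12 from 56373593 to 56373823 (minus strand), equals *Cox6c* at 224 of 231 bases (97.0%), with an identical stretch of 145 bases. *Ndufs6b* and *Ndufa11b* share 96.6% and 94.8% of their bases with *Ndufs6* and *Ndufa11*. The first 90 bases from the start codon are shown for the 2 pairs that drew the most reads, with differing bases in capitals.
Ndufb4: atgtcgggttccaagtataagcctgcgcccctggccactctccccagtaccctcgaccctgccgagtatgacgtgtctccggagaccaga
Ndufb4c: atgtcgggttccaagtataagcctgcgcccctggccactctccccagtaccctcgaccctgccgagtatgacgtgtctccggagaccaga
Cox6c: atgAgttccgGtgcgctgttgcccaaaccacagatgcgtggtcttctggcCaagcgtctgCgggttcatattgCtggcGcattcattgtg
Cox6c2: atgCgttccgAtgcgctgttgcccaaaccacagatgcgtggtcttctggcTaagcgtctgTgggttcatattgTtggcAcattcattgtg

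*Ndufb4*, an accessory complex I subunit, and *Ndufb4c* received fractional counts, which mark reads shared out between features. In AAV-CTRL 1, 2 and 3, *Ndufb4c* was given 71.5%, 62.8% and 75.6% of the summed reads of the pair, and in AAV-VEGF-C 1, 2 and 3 it was given 0% (of 6 reads), 69.4% and 52.4%. Neither row can therefore be read alone. The pair summed to 15.7, 18.4 and 27.8 CPM in the controls and 13.9, 12.9 and 12.9 CPM in AAV-VEGF-C, so that the groups did not overlap, although in *Ndufb4* alone they did. *Cox6c*, a small complex IV subunit, kept most reads of its pair: the share given to *Cox6c2* was 0.332% to 10.2% in the controls and 11.1% to 24.5% in AAV-VEGF-C. The *Cox6c* pair summed to 61.8, 69.6 and 76.6 CPM in the controls and 26.5, 33.7 and 55.5 CPM in AAV-VEGF-C, again with no overlap. In all, 31 members had a fractional count in at least 1 library, taking a value within 0.005 of a whole number as whole.

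**Figure D1:**
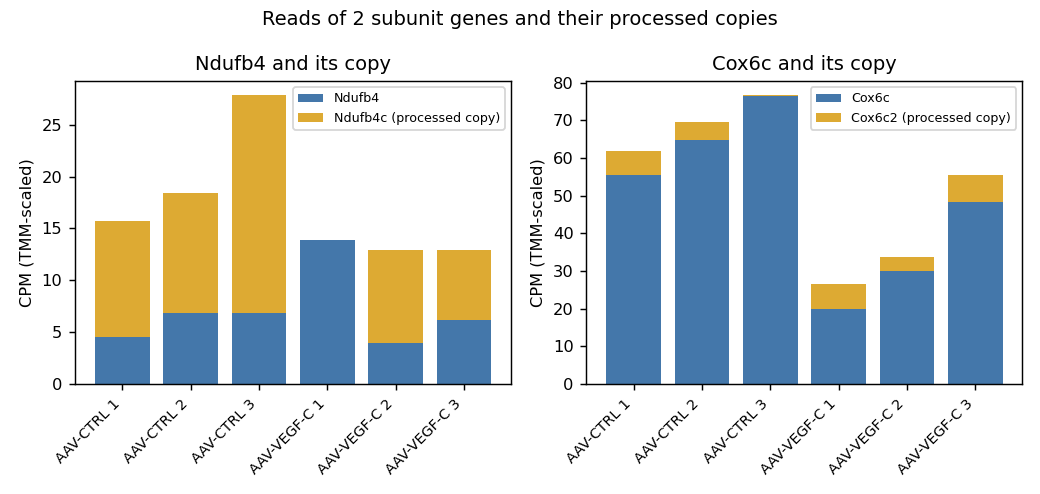
TMM-scaled CPM given to *Ndufb4* and its processed copy *Ndufb4c* (left) and to *Cox6c* and *Cox6c2* (right), with bars for the 6 libraries stacked to the sum of the pair. The copy holds 62.8% to 75.6% of the *Ndufb4* pair in the controls and none in AAV-VEGF-C 1, while the sum of each AAV-VEGF-C library lies under all 3 controls.

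Levels were read in the sorted LEC libraries of the controls, which also held markers of other cells. All 78 subunit genes of the 5 complexes, leaving out tissue-restricted isoforms, assembly factors and copies, were measured. Their means were 4.02 to 146 TPM, with a median of 21.1 TPM. The catalytic beta subunit of ATP synthase, *Atp5b*, had the highest mean, 146 ± 29.5 TPM (SD, n = 3), and *Atp5g2*, a gene for the membrane c ring, the lowest, 4.02 ± 3.67 TPM. The highest means of the other complexes were *Cox6c* at 129 ± 76.8 TPM, *Uqcrq*, a small complex III subunit, at 55.8 ± 21.8 TPM, the flavoprotein of complex II, *Sdha*, at 55.0 ± 21.1 TPM, and *Ndufb10*, a membrane arm subunit of complex I, at 44.9 ± 19.8 TPM. Their SDs overlap, except that *Atp5b* lies above the other 3 that follow *Cox6c*. Levels within a complex spanned 5.07-fold in complex III and 36.2-fold in complex V, although the subunits of a complex are needed in fixed ratios. The c ring of each ATP synthase is built from the products of *Atp5g1*, *Atp5g2* and *Atp5g3*, which encode the same mature protein, and these had means of 6.42 ± 3.11, 4.02 ± 3.67 and 31.1 ± 13.7 TPM. In AAV-VEGF-C the median of the 78 subunit genes was 6.15 TPM, with *Atp5b* again highest (47.8 ± 32.8 TPM) and *Atp5g2* lowest (1.18 ± 0.899 TPM).

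**Figure D2:**
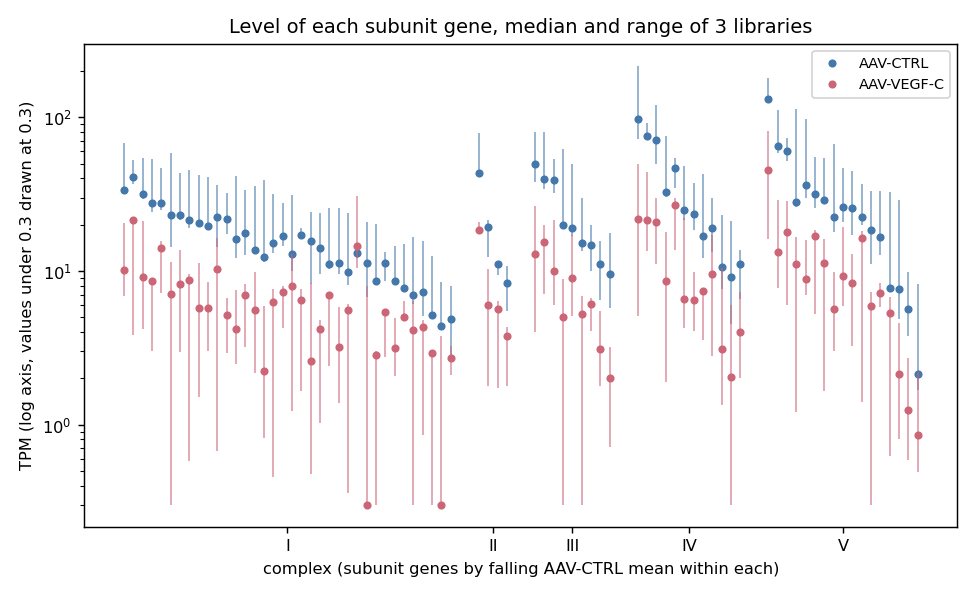
TPM (log axis) of the 78 subunit genes, grouped by complex and ordered by AAV-CTRL mean, where points are the median and lines the range of 3 libraries, and values under 0.3 are drawn at 0.3. The medians over genes are 21.1 TPM in the controls and 6.15 TPM in AAV-VEGF-C.

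Isoform pairs were read by their ubiquitous and tissue-restricted members. The ubiquitous *Cox4i1* was at 80.2 ± 35.8 TPM in the controls and 20.6 ± 9.36 in AAV-VEGF-C, whereas *Cox4i2*, the isoform known from lung and low oxygen, was at 2.60 ± 1.67 and 0.755 ± 0.764 TPM, from 12, 16 and 42 counts against 3, 0 and 4. The heart and muscle isoforms *Cox6a2*, *Cox7a1* and *Cox8b* had at most 7, 4 and 6 counts in a library, while their ubiquitous partners *Cox6a1*, *Cox7a2* and *Cox8a* averaged 46.1, 13.7 and 80.7 TPM in AAV-CTRL. These low counts stand beside a summed CPM of 8 striated muscle markers of 3.05 to 9.47 in the controls and 18.5 to 53.5 in AAV-VEGF-C. Other restricted isoforms drew more reads. *Cox6b2*, an isoform known from testis, had 46, 33 and 35 counts in the controls and 2, 6 and 10 in AAV-VEGF-C, a mean of 6.64 ± 2.12 against 2.92 ± 1.06 TPM, beside 20.7 ± 8.50 and 9.86 ± 7.20 TPM for *Cox6b1*. Of the testis germ cell markers, the protamine *Prm1* was at 0 in all 6 libraries. The protamine *Prm2* had 0, 3 and 0 counts in the controls and 1, 0 and 8 in AAV-VEGF-C. *Tnp1* had 0, 0 and 0 against 0, 1 and 2. *Ndufa4l2*, a relative of the complex IV subunit *Ndufa4* that is known to be induced by low oxygen, was at 2.50 ± 1.39 and 2.15 ± 0.951 TPM and overlapped between groups. Only *Cox7b2*, *Ndufs6b* and *Cox8c* had 3 or fewer counts in every library.

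Between the vectors, transcripts of the chain made up a smaller share of the AAV-VEGF-C libraries. The 99 members summed to 2268, 2316 and 2465 CPM in AAV-CTRL 1, 2 and 3 and to 1419, 1458 and 1732 CPM in AAV-VEGF-C 1, 2 and 3. Every AAV-VEGF-C library lay below every AAV-CTRL library, with means of 2350 ± 103 and 1536 ± 171 CPM and a ratio of 0.654. Within experiments 1, 2 and 3 the log2 ratio was -0.68, -0.67 and -0.51. With library totals alone the ratio was 0.587, and with summed TPM it was 0.293 (1664, 1934 and 3588 against 309, 714 and 1081), so its size depended on the unit. In bulk RNA, fewer cells that express a gene and less of its RNA per cell cannot be told apart.

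All 5 complexes were lower on this scale, with no overlap between groups in any of them. Complex I summed to 726 to 831 CPM in the controls and 496 to 593 in AAV-VEGF-C (ratio 0.713), and complex V to 764 to 804 and 384 to 550 (0.604). The complex I sums include *Ndufb2*, at 13.8, 11.4 and 9.14 CPM in the controls and 173, 27.2 and 25.0 CPM in AAV-VEGF-C. This gene raises the complex I ratio, so the order of the complexes is not read as a result. The ratio was 0.672 in complex II, 0.622 in complex III and 0.647 in complex IV. Of all member counts, complex I took 31.4% to 33.7% in the controls and 34.0% to 38.1% in AAV-VEGF-C, and complex V 32.6% to 33.7% and 27.0% to 32.6%, so that the groups bordered on each other without overlap. Complex IV took 16.6% to 17.4% and 15.3% to 17.4%, with overlap. *Ndufb2*, whose reads are uncertain (below), gave 75 of 234 complex I counts in AAV-VEGF-C 1, 38 of 692 in 2 and 87 of 2063 in 3. In AAV-CTRL 1, 2 and 3 it gave 86 of 4523, 90 of 5723 and 135 of 12269. The separation of the shares in complexes I and V therefore rests on this gene.

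**Figure D3:**
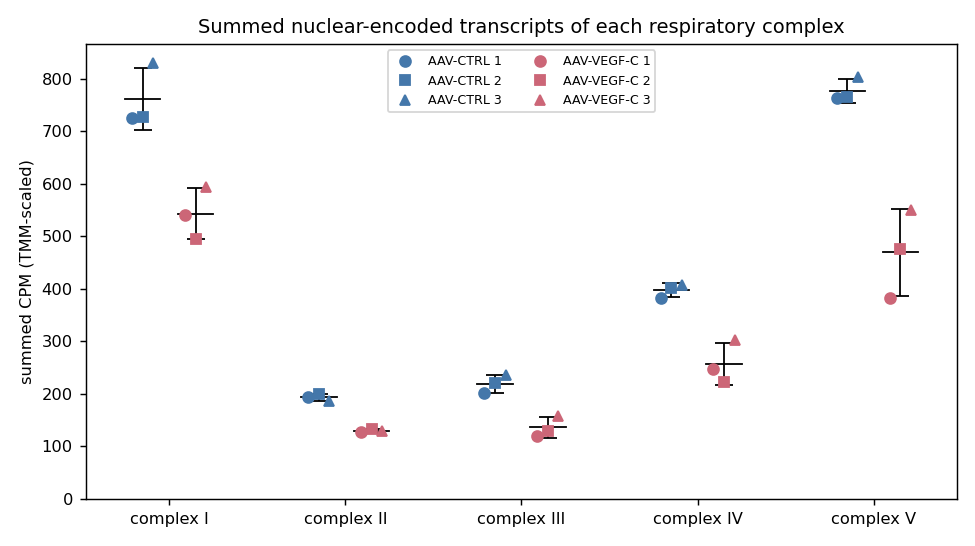
Summed TMM-scaled CPM of the members of each complex, with 1 point per library, the mean as a bar and the SD as an error bar for 3 libraries per vector. In each complex the 3 AAV-VEGF-C libraries lie below the 3 AAV-CTRL libraries, with ratios of means from 0.604 in complex V to 0.713 in complex I. The complex I ratio is raised by *Ndufb2*, at 173 CPM in AAV-VEGF-C 1 and 9.14 to 13.8 CPM in the controls.

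Gene by gene, no member passed the main test, which had no block for the experiment. Of the 90 members with enough counts, edgeR called 0 lower and 0 higher at an adjusted p of 0.05, where it called 0.659% of 17459 genes lower and 10.5% higher. At an unadjusted p of 0.05 the members lower were 21 (9.11% of all genes) and the members higher 1 (19% of all genes). DESeq2 called 1 lower (*Atp5a1*) and 1 higher (*Ndufb2*), where it called 1.53% of the genes it gave an adjusted p lower and 18% higher. The limma fit on log2(TPM + 1) called 15 lower and 0 higher, beside 2.49% and 6.37% of all genes. With the experiment as a block, edgeR called 1 lower (*Uqcrfs1*) and 1 higher (*Ndufb2*), beside 2.07% and 12.8% of all genes. The smallest adjusted p was 0.0588 (edgeR), for *Ndufa2*. The estimates leaned one way: 79 of 90 lay below 0, with a median log2 fold change of -0.59 against 0.00 over all genes. That lean was shared in part by other genes of like level, whose median was -0.41 at a mean of 5 to 50 TPM, where 72 members had a median of -0.67.

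Read without a model, 39 of 90 members had all 3 AAV-VEGF-C libraries under all 3 controls, or 43.3%, against 17.6% of all genes. Among those averaging 5 TPM or more it was 37 of 76 members (48.7%) against 33.3% of genes. One member was higher in every AAV-VEGF-C library, against 22.3% of all genes and 7.06% of those averaging 5 TPM or more. In TPM the count was 68 of 90, against 36.4% of all genes. At 5 TPM it was 62 of 76 members (81.6%) against 61.4% of genes, so most of it was shared with genes of like level. Scaled on the 2000 most abundant genes, 11 members were lower with no overlap and 3 higher, beside 3.76% of all genes lower and 31.1% higher. At 5 TPM, 14.5% of members were lower and 2.63% higher, beside 7.05% and 13.8% of genes. Under this scaling 57 estimates lay below 0 and 33 above. That scaling moved the median of all genes to 0.45 and that of the members to -0.14. It shifts every gene by nearly the same amount, so the difference of -0.59 was kept by construction and is not a further result. On log2(TPM + 1) the medians were -0.72 and -1.72. Within the 3 experiments, 73, 78 and 73 of 90 members were lower in AAV-VEGF-C, and 58 in all of them (64.4%, against 27.9% of all genes).

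**Figure D4:**
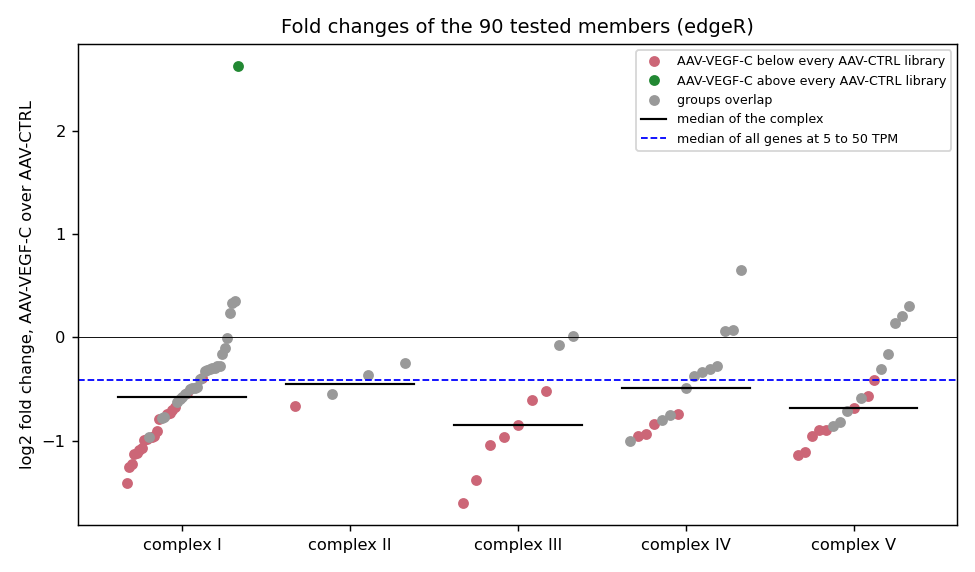
edgeR log2 fold changes, AAV-VEGF-C over AAV-CTRL, of the 90 tested members by complex (points, ordered within a complex), coloured by whether the groups overlap in CPM. Black lines mark complex medians from -0.85 in complex III to -0.45 in complex II, and the dashed line marks the median of all genes at 5 to 50 TPM, -0.41.

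Complex I had a median log2 fold change of -0.58 over 45 tested members, 41 of them below 0. Its core subunits, which hold the flavin and iron-sulphur centres, were all below 0 under TMM scaling, and 5 of 7 were when scaled on the 2000 most abundant genes. *Ndufv1*, the NADH-binding subunit, was at 41.1, 38.7 and 37.1 CPM in the controls and 30.04, 18.6 and 23.3 CPM in AAV-VEGF-C, without overlap (log2 fold change -0.73, SE 0.28, edgeR adjusted p = 0.14). In *Ndufs1*, which holds iron-sulphur clusters of the NADH arm (-0.40), and in *Ndufs7* (-0.60) and *Ndufs8* (-0.77), which carry the last clusters before ubiquinone, the groups overlapped.

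Among the accessory subunits of complex I, which surround the core, *Ndufa2* was at 22.0, 21.6 and 23.3 CPM in the controls and 9.24, 12.2 and 9.20 CPM in AAV-VEGF-C. The groups lay apart, with -1.12 on the log2 scale (SE 0.31, edgeR adjusted p = 0.0588). Values within a group were close, but that of AAV-VEGF-C 1 rests on 4 counts, so the closeness there does not measure precision. *Ndufa2* was singled out after its values were seen, for the smallest adjusted p. *Ndufs6*, which is needed for late assembly, had the lowest fold change of the complex, -1.41 (SE 0.63), from 8.19, 6.61 and 9.28 CPM to 0, 4.30 and 3.16 CPM, of which the 0 is below what the depth of AAV-VEGF-C 1 resolves. The 8 Ndufaf assembly factors, which help to build the complex and are not part of it, had a median of -0.29 with 6 below 0. That median was 0.17 with 1 below 0 when scaled on the 2000 most abundant genes, and -1.05 with 8 below 0 without AAV-VEGF-C replicate 3.

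*Ndufb2*, a small accessory subunit of the membrane arm, was the one member above the control range. Its counts were 86, 90 and 135 in the controls and 75, 38 and 87 in AAV-VEGF-C, which at the lower depth gave 13.8, 11.4 and 9.14 CPM and 173, 27.2 and 25.0 CPM. The groups did not overlap, and AAV-VEGF-C 1 stood far above the others. The edgeR log2 fold change was 2.64 (SE 0.77, adjusted p = 0.069), and it was 1.13 without AAV-VEGF-C replicate 1. With the experiment as a block it was 2.10 (adjusted p = 0.0217), one of the 12.8% of genes called higher in that fit. In TPM the groups overlapped, at 12.2, 13.1 and 13.8 against 30.9, 10.4 and 14.5. The gene spans chr6:39592574-39603382 on the plus strand, and its exons overlap those of *Gm42420* on the same strand and of *Gm16272* and *Braf* on the other, so the reads counted for it are uncertain.

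Complex II, succinate dehydrogenase, has no mitochondrially encoded subunit, and its 4 genes were all below 0 with a median of -0.45 (2 of 4 below 0 when scaled on the 2000 most abundant genes). *Sdha*, the succinate-oxidising flavoprotein, was at 121, 119 and 125 CPM in the controls and 85.5, 74.5 and 71.6 CPM in AAV-VEGF-C, a tight pair of groups without overlap (log2 fold change -0.66, SE 0.24, edgeR adjusted p = 0.12). *Sdhb*, the iron-sulphur subunit (-0.54, SE 0.35), and the membrane anchors *Sdhc* (-0.36, SE 0.30) and *Sdhd* (-0.25, SE 0.33) overlapped between groups.

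Complex III had the lowest median, -0.85 over 9 genes. *Uqcrfs1*, the Rieske iron-sulphur protein that takes electrons from ubiquinol, had 77, 142 and 338 counts in the controls and 2, 9 and 28 in AAV-VEGF-C. These are 12.4, 18.1 and 22.9 CPM against 4.62, 6.45 and 8.05 CPM, with no overlap. The log2 fold change was -1.39 (SE 0.40, edgeR adjusted p = 0.068). With the experiment as a block it was -1.48 (adjusted p = 0.0454), and *Uqcrfs1* was then the only member called lower, in a fit that called 2.07% of all genes lower. *Cyc1*, cytochrome c1, the next carrier in the same complex, overlapped between groups, at 17.0, 25.1 and 18.1 CPM against 23.1, 15.1 and 20.1 CPM (-0.07, SE 0.33).

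The small subunits of complex III covered its whole range. *Uqcrb*, which helps to form the ubiquinone pocket, was lowest of all tested members at -1.61 (SE 0.61, edgeR adjusted p = 0.14), with 12.5, 11.6 and 21.2 CPM against 0, 5.02 and 6.90 CPM. The 0 is below what the depth of AAV-VEGF-C 1 resolves. *Uqcrq* was at 26.3, 28.5 and 32.0 CPM against 9.24, 12.9 and 23.0 CPM (-0.85, SE 0.37). *Uqcr11*, the smallest subunit, whose start holds both the NRF1 and the ETS core, was highest at 0.01 (SE 0.33), with 13.2, 12.2 and 15.5 CPM against 13.9, 10.8 and 16.4 CPM, fully overlapping.

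**Figure D5:**
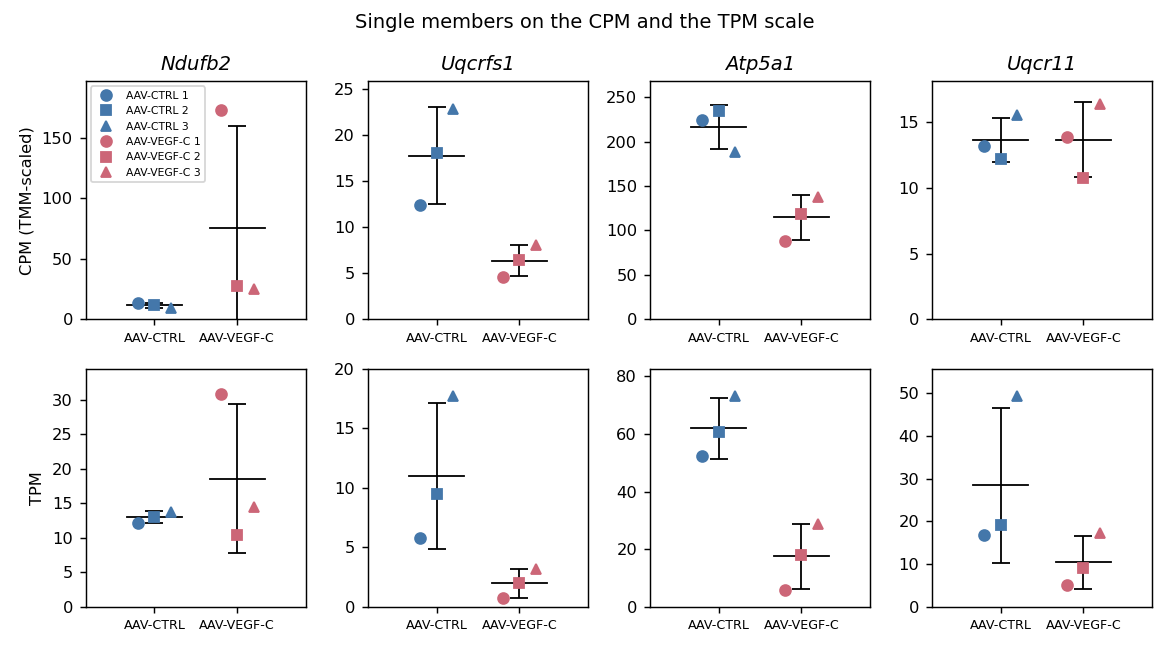
CPM after TMM scaling (top) and TPM (bottom) of *Ndufb2*, *Uqcrfs1*, *Atp5a1* and *Uqcr11* in each library, with the mean and SD of 3 libraries per vector (error bars end at 0). *Uqcrfs1* and *Atp5a1* are lower in every AAV-VEGF-C library on both scales, while *Ndufb2* is higher in CPM and overlaps in TPM.

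Complex IV had a median of -0.49 over 15 tested members, and the 12 ubiquitous subunits alone had -0.75 with 11 below 0. *Cox4i1*, the largest nuclear subunit, was at 64.7, 78.6 and 78.2 CPM in the controls and 50.8, 38.7 and 44.0 CPM in AAV-VEGF-C, without overlap (log2 fold change -0.74, SE 0.26, edgeR adjusted p = 0.11). *Cox6a1* (-0.95, SE 0.39) and *Cox6c* (-0.94, SE 0.35) also did not overlap. The lowest estimate was that of *Cox7c*, another small subunit, at -1.0 (SE 0.73), from 3.37, 5.09 and 8.26 CPM to 0, 2.15 and 4.31 CPM, and its groups overlapped. Here too the 0 is below what the depth of AAV-VEGF-C 1 resolves. *Cox8a*, with the ETS core at its start, overlapped as well at 72.4, 59.9 and 43.4 CPM against 43.9, 31.5 and 49.7 CPM (-0.49, SE 0.32). *Cox6c2* had the highest estimate of the complex, a value that rests on how reads were shared with *Cox6c*.

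Complex V had a median of -0.68 over 17 tested members. The 5 genes of the F1 head, the catalytic part, were all below 0 with a median of -0.71 (4 of 5 below 0 when scaled on the 2000 most abundant genes). *Atp5a1*, the alpha subunit, was at 225, 235 and 188 CPM in the controls and 87.8, 119 and 138 CPM in AAV-VEGF-C (an estimate of -0.90, SE 0.28, edgeR adjusted p = 0.085), and it was the member DESeq2 called lower (-0.96, adjusted p = 0.0317). *Atp5b* was at 221, 207 and 199 CPM against 99.4, 116 and 173 CPM (-0.68, SE 0.30). Neither gene overlapped between groups. *Atp5o*, of the stalk that holds the head in place, had the lowest estimate of the complex at -1.14 (SE 0.33, edgeR adjusted p = 0.070), with 32.0, 27.5 and 39.1 CPM against 9.24, 15.1 and 18.1 CPM, under the identifier that held nearly all of its reads. *Atp5j*, coupling factor 6 of the stalk, has a RefSeq start with the YY1 and ETS cores and another with neither in the same span. It was at 60.1, 53.0 and 66.3 CPM against 25.4, 23.7 and 45.1 CPM, again without overlap. Its exons overlap those of *Gabpa*, a gene for an ETS factor, on the other strand.

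The c ring genes were nearer to 0 under TMM scaling, while all 3 lay above 0 when scaled on the 2000 most abundant genes and all 3 below 0 on log2(TPM + 1). *Atp5g1* was at 7.71, 5.09 and 7.58 CPM against 9.24, 7.17 and 6.90 CPM (log2 fold change 0.14, SE 0.42), *Atp5g2* at 2.25, 2.42 and 3.86 CPM against 4.62, 0.717 and 3.16 CPM (-0.16, SE 0.71), and *Atp5g3* at 23.8, 26.3 and 28.9 CPM against 20.8, 16.5 and 25.9 CPM (-0.31, SE 0.30). All 3 overlapped, and their sum was 33.7, 33.8 and 40.4 CPM against 34.7, 24.4 and 35.9 CPM, a ratio of 0.880 beside 0.590 for the F1 head. The difference between these ratios was not tested. *Atp5md*, a small membrane subunit, had the highest estimate of the complex and overlapped at 3.69, 3.18 and 6.97 CPM against 6.93, 6.45 and 4.601 CPM.

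The mitochondrially encoded partners and other energy genes were read beside the members. Of 13 mitochondrially encoded chain genes, edgeR called 0 lower and 0 higher at an adjusted p of 0.05, none had an unadjusted p under 0.05, and DESeq2 and limma also called 0. Their median was -0.89, and 12 lay below 0, while *mt-Nd6*, the one encoded on the other strand of the mitochondrial genome, lay at 0.26. Counts of these genes per count of the nuclear members were 2.25, 2.59 and 3.86 in the controls and 1.27, 3.81 and 2.19 in AAV-VEGF-C, so the balance of the genomes overlapped between groups.

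Of 78 mitochondrial ribosomal protein genes, which translate the mitochondrial messages, 0 were called in either direction (0 lower and 1 higher at an unadjusted p of 0.05, 0 with DESeq2 and 1 lower with limma on log2(TPM + 1)), with a median of -0.28. The 17 tested glycolysis genes had 0 calls (6 lower and 0 higher unadjusted, 2 lower with DESeq2 and 1 lower with limma), a median of -0.51 and a ratio of summed CPM of 0.655, next to 0.654 for the chain. Member counts per glycolysis count were 1.48, 1.66 and 1.79 in the controls and 1.67, 1.62 and 1.61 in AAV-VEGF-C, with overlap. Per count of the mitochondrial ribosomal protein genes they were 3.17, 3.39 and 3.21 in the controls against 2.54, 2.44 and 2.59, and here the groups lay apart.

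In the edgeR fit, the calls in the higher direction among these lists were of assembly genes and a regulator, whereas the member *Ndufb2* was called higher with DESeq2 and with the replicate block. Of 43 tested assembly and cofactor genes, 2 were called higher and 0 lower, beside 10.5% of all genes called higher, with a median of -0.06. *Coa4*, a complex IV assembly factor, had 3, 6 and 10 counts in the controls and 2, 8 and 22 in AAV-VEGF-C (an estimate of 3.10, SE 0.57, edgeR adjusted p = 0.0201). *Lyrm7*, which helps to insert the Rieske protein encoded by *Uqcrfs1*, had 4, 5 and 12 counts and 2, 7 and 16 counts (2.72, SE 0.56, edgeR adjusted p = 0.0256). At the depth of the controls both genes lay under the count filter (filterByExpr). They entered the test only through the AAV-VEGF-C libraries, where they are high, so their calls are not read as a result about the assembly genes. With the experiment as a block *Lyrm7* was no longer called (2.71, edgeR adjusted p = 0.0592), while *Coa4* was (3.08, edgeR adjusted p = 0.0369). Of 11 regulators of mitochondrial genes, 1 was called higher and 0 lower: *Ppargc1a*, the coactivator PGC-1alpha, had 29, 27 and 37 counts against 40, 24 and 36 (3.37, SE 0.84, edgeR adjusted p = 0.0414, and 1.90 without AAV-VEGF-C replicate 1). Raw counts of these genes were alike in the groups while the totals were lower in AAV-VEGF-C, as for *Ndufb2*. Without any 1 library, 0 or 1 of the 2 assembly genes was called, and *Ppargc1a* was called in none of these fits.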

How the data were processed

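The authors deposited estimated counts per gene (unscaled between libraries) and TPM, which corrects for length and library total. The submitters' processing notes name FastQC, Trimmomatic, DRAGEN, Picard and mm10 without their roles; the use of strand and molecular identifiers in counting is not given in the sources used here. Gene identifiers were matched to GENCODE M21. Counts were rounded, filtered by filterByExpr, TMM-scaled and tested by the quasi-likelihood test of edgeR 4.0.16 (R 4.3.3) on all 6 libraries, with Benjamini-Hochberg adjustment over all 17459 genes. The SE is the fold change over the root of the F statistic. DESeq2 1.42.0, the study's method, and limma 3.58.1 on log2(TPM + 1) were alternatives. The script was tested on simulated data.

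Replicate numbers mark repeats of the experiment in the sample titles, and the libraries are paired by them. Deviations of same-numbered libraries from group means correlated across genes (not independent replicates) at 0.37, 0.28 and 0.15. Those of unlike number ran from -0.40 to 0.22. The highest of these was AAV-CTRL 3 with AAV-VEGF-C 2, above the third pair, so that pair rests on the titles. Libraries of the same vector differed beyond counting noise (chi-square over its degrees of freedom 7.70 or more). Named genes are the core subunits listed above, complex II, the c ring, isoform families, and per complex the highest mean TPM and lowest and highest fold change; 1 of them is not reported here. The members and lists were chosen with earlier results of these data known. Totals of 564475 to 12399498 counts set the precision, which is lowest in AAV-VEGF-C 1.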

Additional observations from a re-analysis of the deposited data

How the results depend on the processing

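The members' median stayed below 0 under every alternative run (TMM value -0.59). It was -0.14 when scaled on the 2000 most abundant genes, -1.72 on log2(TPM + 1) and -1.95 on log2(TPM + 0.1), and -0.96 to -0.56 when 1 library was left out. The ratio of summed levels, 0.654 in TMM-scaled CPM, was 0.293 in TPM and 0.612 to 0.679 with 1 library left out. The number of members called lower, 0 in edgeR, was 1 with DESeq2, 15 and 3 on log2(TPM + 1) and log2(TPM + 0.1) and 13 with no filter, and 0 with every single library left out. With the replicate block, which follows the pairing by experiment, 1 was called lower and 1 higher. The number called higher was 1 with library totals alone, 1 on the 2000 most abundant genes, 1 with DESeq2 and 2 with no filter. Those called higher with no filter were *Ndufb2* and the *Atp5o* identifier with few reads, which the filter leaves out. Shares of all genes called are given above for DESeq2, log2(TPM + 1) and the block. For the other settings they are not given here, so those counts are not read as a result about the members. Members lower with no overlap, 39 in CPM, were 11 on the 2000 most abundant genes and 68 in TPM, and members higher were 3 and 0 (scalings chosen after seeing the data).

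In the other lists, 5 mitochondrially encoded genes were called lower with no filter, 1 mitochondrial ribosomal gene on log2(TPM + 1), and glycolysis genes numbered 2 with DESeq2, 1 on log2(TPM + 1) and 3 with no filter. The share of all genes called with no filter is not given here, so those counts are not read as particular to these lists. The 2 assembly genes called higher became 0 on either log2 TPM scale, at a mean of at least 5 TPM and with counts drawn down to the smallest total, 1 with the block, and 0 to 1 with 1 library left out. The 1 regulator became 0 on both log2 TPM scales, at 5 TPM, with counts drawn down and with any 1 library left out (0 to 0).

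Directions turned in 9 of 32 genes whose fold change is given. Scaled on the 2000 most abundant genes these were *Ndufs1* (0.0498), *Sdhc* (0.0886), *Sdhd* (0.21), *Cyc1* (0.40), *Atp5g2* (0.31) and *Atp5g3* (0.16), and by its construction that scaling puts the all-gene median at 0.45 in place of 0.00. At 5 TPM they were *Sdhd* (0.0902), *Cyc1* (0.28) and *Atp5g3* (0.0406), and with counts drawn down *Sdhb* (0.13), *Cyc1* (0.12) and *Atp5g3* (0.60). *Atp5g1* went to -1.57 and -2.14 on the log2 TPM scales with pseudocounts of 1 and 0.1 and to -0.0925 with no filter. *Uqcr11* went to -0.0897 with library totals alone, -0.0513 with DESeq2, -1.34 and -1.44 on log2 TPM, -0.23 without a filter, and -0.0105 with the replicate block. With 1 library left out, *Cyc1* ran from -0.25 to 0.0689, *Atp5g1* from -0.0727 to 0.19, *Atp5g2* from -0.61 to 0.22 and *Uqcr11* from -0.29 to 0.0555. The cause of the changes under the other settings was not tested. Depth limits members of AAV-VEGF-C 1 most, where 41 had over 3 counts.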

Other observations

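The name rule left out 14 rows with -ps in their names. Most had few counts, but *Ndufb1-ps*, the row that carries the name of a small complex I subunit, received 21, 52 and 160 counts in the AAV-CTRL libraries, against 5, 11 and 15 in those of AAV-VEGF-C, and *Ndufa12-ps* had fractional counts up to 40.6. These rows were named after their values were seen.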
